A study of Mus musculus with 12 samples.

Results

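Transcripts of 10 genes that the tumour suppressor p53 activates were followed in single cells of the mouse hippocampus, after cisplatin or saline and with or without sensory stimulation. The genes were Phlda3, Trp53inp1, Ccng1, Bax, Bbc3, Mdm2, Aen, Zmat3, Eda2r and Gdf15, a list of known p53 targets given by name that leaves out the best known one, Cdkn1a (p21). All 10 were among the 32285 genes of the deposited matrix of 19834 cells. The cells came from 12 libraries of 9-week-old female C57/BL6J mice. Cisplatin stim mice received cisplatin, a platinum drug that crosslinks DNA, together with light flicker and sound at 40 Hz for 1 h a day over 21 days. Cisplatin nonstim mice received the drug alone, PBS stim mice received phosphate-buffered saline (PBS) with the same stimulation, and PBS nonstim mice received PBS alone. Every group had 3 libraries, and all tissue was taken on day 22. Library 1 of each group was made from 1 animal and libraries 2 and 3 from 2 pooled animals each, so the spread between libraries is a spread between animals or pairs of animals. The drug dose and the injection schedule are not given in the labels used here.

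The protein p53 is a transcription factor that is held at a low level by the ubiquitin ligase Mdm2 and accumulates when DNA is damaged. It then binds target genes that stop the cell cycle, repair DNA, change metabolism or start apoptosis, and Mdm2 is itself a target, which closes a feedback loop. Crosslinks made by platinum drugs are a classic p53-activating lesion, and which targets respond is known to differ between cell types. Among the 10 genes, Phlda3 encodes a pleckstrin-homology protein that restrains the kinase Akt, and Trp53inp1 encodes a nuclear partner of p53 with a role in autophagy. Ccng1 encodes cyclin G1, which acts in the feedback on p53, and Mdm2 the ligase. Bax and Bbc3 (the protein Puma) belong to the Bcl-2 family and promote the mitochondrial step of apoptosis, and Aen is an apoptosis-associated nuclease. Zmat3 encodes an RNA-binding zinc finger protein, Eda2r a receptor of the tumour necrosis factor receptor family, and Gdf15 a secreted stress cytokine.

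In the GENCODE annotation of GRCm38, Phlda3 (ENSMUSG00000041801) lies on the plus strand of chromosome 1 from 135766119 to 135769136 and Trp53inp1 (ENSMUSG00000028211) on that of chromosome 4 from 11156431 to 11174379. Ccng1 (ENSMUSG00000020326) lies on the minus strand of chromosome 11 from 40748552 to 40755311. Bax (ENSMUSG00000003873) lies on the minus strand of chromosome 7 from 45461697 to 45466898, where a second annotated gene, Gm45808, overlaps it on the same strand, so reads in the overlap cannot be assigned with certainty. Bbc3 (ENSMUSG00000002083) lies on chromosome 7 from 16308393 to 16318205. The other 5 genes were Mdm2 on chromosome 10, Aen on chromosome 7, Zmat3 on chromosome 3, Eda2r on chromosome X and Gdf15 on chromosome 8.

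The sequences just upstream of Phlda3, Ccng1 and Bax are shown because these are 3 of the 4 genes that rose together in endothelium in the comparison that opens the results, and the 3 of that set with an entry in the promoter table used here. They come from RefSeq (GRCm38.p6), are written 5′ to 3′ on the strand of the gene and end at the base before the RefSeq start or, for Ccng1, before the annotated gene body. The windows are chr1:135765835-135766084 on the plus strand for Phlda3, chr11:40755312-40755536 on the minus strand for Ccng1 and chr7:45466899-45467148 on the minus strand for Bax. Capitals mark each exact match to the consensus p53 half-site, a motif of 10 bases that reads the same on both strands.
Phlda3: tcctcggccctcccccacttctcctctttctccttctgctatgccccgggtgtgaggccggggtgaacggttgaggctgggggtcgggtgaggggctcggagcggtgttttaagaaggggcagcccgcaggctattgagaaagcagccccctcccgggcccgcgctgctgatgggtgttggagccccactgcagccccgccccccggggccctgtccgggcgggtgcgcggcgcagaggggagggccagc
Ccng1: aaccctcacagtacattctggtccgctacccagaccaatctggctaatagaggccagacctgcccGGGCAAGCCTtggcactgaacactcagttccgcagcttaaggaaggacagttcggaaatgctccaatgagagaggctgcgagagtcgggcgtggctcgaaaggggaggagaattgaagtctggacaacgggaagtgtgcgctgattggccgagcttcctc
Bax: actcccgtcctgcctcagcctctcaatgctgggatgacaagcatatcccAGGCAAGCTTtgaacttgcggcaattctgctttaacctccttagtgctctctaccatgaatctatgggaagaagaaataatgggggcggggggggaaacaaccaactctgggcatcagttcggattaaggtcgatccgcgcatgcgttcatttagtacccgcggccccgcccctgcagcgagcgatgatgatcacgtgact
A half-site began 185 bases before the RefSeq start of Ccng1, which lies inside the annotated gene body, and 201 bases before that of Bax, and the Phlda3 window held none. Of all 32851 windows of 250 bases in the table, 7.13% held at least 1 half-site. The table had 12 windows for 8 of the 10 genes, and 4 windows, 1 each for Ccng1, Bax, Mdm2 and Aen, held a half-site. A match is a string of letters and not a measured binding site.

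Expression is given as CPM, the unique molecular identifiers (UMIs) of a gene per 1000000 UMIs in the summed cells of 1 type in 1 library. In such sums fewer cells that express a gene and less RNA per cell cannot be told apart. Over all cells the genes held from 86 UMIs (Eda2r, in 78 cells) to 12261 UMIs (Bax, in 7809 cells). In PBS nonstim mice the targets were spread unevenly over the authors' cell types (heat map of levels). Phlda3 stood highest in oligodendrocytes, the myelinating cells, at 250 ± 15.2 CPM (SD, n = 3 here and for the levels that follow), above every other type, and at 56.5 ± 4.12 CPM in oligodendrocyte precursors (OPCs). It averaged 11.1 ± 4.90 CPM in endothelium, 9.96 ± 0.634 CPM in astrocytes and 1.65 ± 0.840 CPM in microglia, and the library ranges of endothelium, immune cells and astrocytes overlapped. Ccng1 was highest in choroid plexus (67.5 ± 5.71 CPM) and ependymal cells (64.3 ± 9.46 CPM), whose ranges overlapped and lay above those of microglia, next in order at 28 ± 2.60 CPM. Mdm2 was likewise highest in ependymal cells (104 ± 47.3 CPM) and choroid plexus (93.1 ± 15.0 CPM), which overlapped each other, with neurons next at 60.4 ± 12 CPM.

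**Figure D1:**
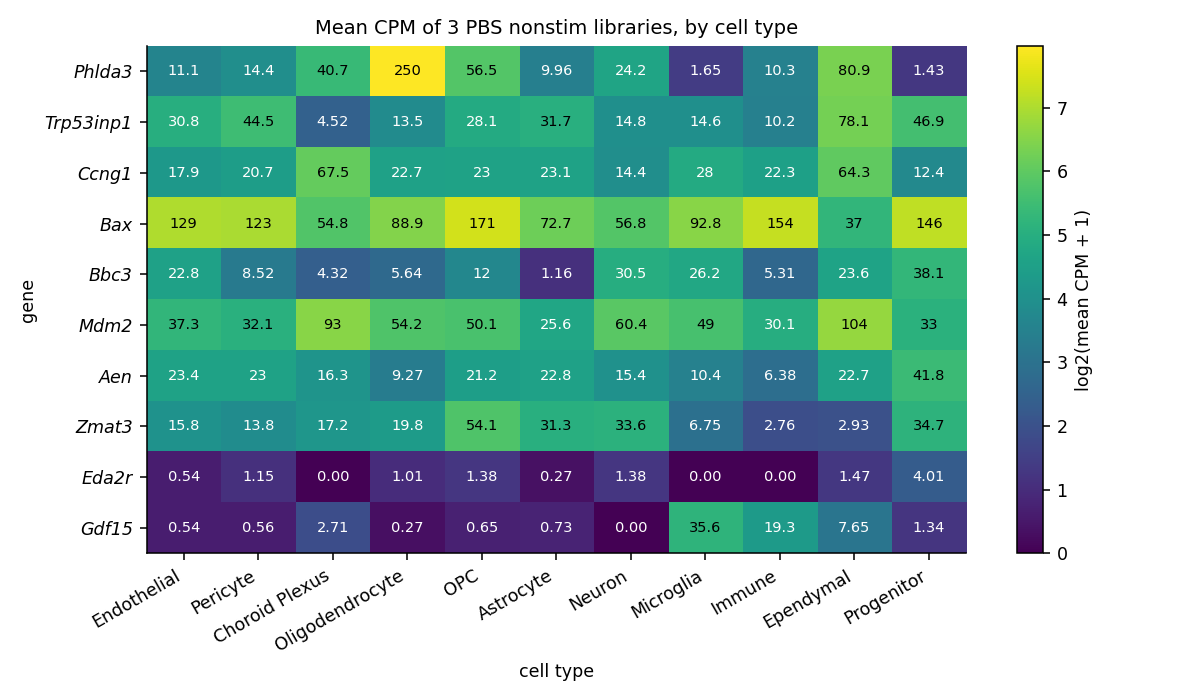
Mean CPM of the 10 p53 targets in 3 PBS nonstim libraries, by cell type (columns) and gene (rows); colour shows log2(mean CPM + 1) and the figures are mean CPM. Phlda3 is highest in oligodendrocytes at 250 CPM. Gdf15 has its highest mean in microglia at 35.6 CPM, where its library range overlaps that of immune cells.

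Bax averaged from 171 ± 15.4 CPM in OPCs to 37.1 ± 40.6 CPM in ependymal cells, with 129 ± 7.67 CPM in endothelium. Trp53inp1 ranged from 78.1 ± 27.1 CPM in ependymal cells to 4.52 ± 2.68 CPM in choroid plexus, and endothelium (30.8 ± 6.37 CPM) overlapped astrocytes (31.7 ± 2.98 CPM). Bbc3 was near its lowest in oligodendrocytes (5.64 ± 0.960 CPM), where the neighbouring types overlapped, and stood at 30.5 ± 13.6 CPM in neurons and 26.2 ± 10.6 CPM in microglia. Zmat3 was highest in OPCs (54.1 ± 2.10 CPM), with no overlap with the type next in order. Aen showed no such step: all neighbouring types overlapped between progenitors (41.8 ± 13.9 CPM) and immune cells (6.38 ± 5.67 CPM). Gdf15 had its highest mean in microglia, at 35.6 ± 37.3 CPM with a range of 10.2 to 78.4 CPM, which overlapped immune cells (19.3 ± 33.4 CPM). Eda2r did not exceed a mean of 4.01 CPM in any type.

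Before the comparisons, some traits of the libraries bear on how far they can be read. Libraries held 611 to 2772 cells and 3964338 to 17656020 UMIs, and 56 cell barcodes occurred in more than 1 library, at most 10 in any pair. The 4 libraries numbered 1, whose names carry the prefix D20, had a median of 10.7 to 17.6% mitochondrially encoded UMIs per cell, against 3.19 to 5.12% in the 8 libraries with the prefix D21. Ribosomal RNA-like transcripts (Gm42418, AY036118 and Lars2) took 0.417 to 0.782% of UMIs in the 4 cisplatin libraries with the D21 prefix, against 1.87 to 3.65% in the 4 PBS libraries with that prefix. With the D20 prefix the share was 0.340 to 0.393% in the 2 cisplatin libraries, against 0.479 to 0.542% in the 2 PBS libraries. Within each prefix the share therefore moves with the drug, by less in the D20 libraries, and cannot be told apart from it. Choroid plexus cells numbered 3233, neurons 1074 and endothelial cells 1434. The choroid plexus lies in the ventricle beside the hippocampus.

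The effect of the drug alone on p53 target transcripts was read from Cisplatin nonstim against PBS nonstim. Most calls fell in endothelium: 4 of the 8 targets tested in endothelium rose, Phlda3 by 5.19-fold, Trp53inp1 by 2.37-fold, Ccng1 by 2.15-fold and Bax by 1.55-fold. Phlda3 passed the filter on low counts in endothelium through its cisplatin libraries, as its PBS libraries held at most 15.8 CPM. Each endothelial count that includes Phlda3, here and below, is therefore not independent of its rise. In oligodendrocytes 1 of 8 rose, Bbc3, by 2.41-fold, in pericytes 1 of 7 rose, Phlda3, and in microglia 1 of 8 fell, Gdf15. No target was called in astrocytes, OPCs, neurons, choroid plexus or immune cells. Over all 9 tested types, 7 of 56 gene and type pairs passed edgeR's quasi-likelihood test at a Benjamini-Hochberg adjusted p under 0.05, 6 higher and 1 lower, against 1.64% of all 69488 pairs. In endothelium alone 0.945% of 8145 genes passed, against 6.25% in oligodendrocytes, 3.59% in microglia and 0.243% in pericytes. In oligodendrocytes and microglia 1 call among 8 targets is close to what those backgrounds give. DESeq2 called 1 of the 8 targets in endothelium, Trp53inp1. Over all tested types it called 4 of the 56 pairs, against 1.39% of all 69488 pairs. It gave Bax an adjusted p of 0.071, and Phlda3 and Ccng1 no adjusted p. With the ribosomal RNA-like share as a covariate 0 of the 56 pairs passed in edgeR, against 0.036% of all 69488 pairs, so that fit called few genes of any kind. Without the prefix as a term 2 passed, and the share over all pairs is not given for that fit.

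Phlda3, the Akt inhibitor, had the largest change of the 8 targets tested in endothelium. Its levels in libraries 1, 2 and 3 were 6.09, 81.5 and 80.2 CPM in Cisplatin stim, 32.6, 66.8 and 71.8 CPM in Cisplatin nonstim, 10.1, 6.76 and 9.25 CPM in PBS stim and 6.01, 11.4 and 15.8 CPM in PBS nonstim. Of the 6 cisplatin libraries, 5 lay above all 6 PBS libraries, and Cisplatin stim library 1 lay at the PBS level. The log2 fold change without stimulation was 2.38 ± 0.31 (SE; edgeR adjusted p = 0.000171). Between Cisplatin stim and PBS stim it was 2.97 ± 0.40 (edgeR adjusted p = 0.000221), and 3.12 without Cisplatin stim library 1 (edgeR adjusted p = 8e-06). The UMIs were not those of a few cells: in each cisplatin library but the first of Cisplatin stim, 25 to 40 endothelial cells held at least 1 Phlda3 UMI.

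The share of endothelial cells with a Phlda3 UMI was also compared at a fixed depth of 2000 UMIs per cell, leaving out shallower cells. It was 0 to 14.5% in Cisplatin stim libraries and 4.84 to 12.9% in Cisplatin nonstim libraries, against 0 to 4.76% in PBS stim and 1.49 to 3.53% in PBS nonstim libraries. Unthinned, the shares of the same cells were 6.06 to 36.2% in Cisplatin stim and 20.2 to 29.2% in Cisplatin nonstim, against 3.85 to 9.52% in PBS stim and 5 to 9.41% in PBS nonstim. The 0 of Cisplatin stim library 1 rests on 33 cells, which allows a share of up to 9.09%, and that of PBS stim library 2 on 85 cells, which allows up to 3.53%; these limits cover counting error only. In microglia, which had the lowest level among the larger types, the thinned share was 0 to 1.75% over the 12 libraries, with median depths of 4317 to 10940 UMIs per microglial cell and 3972 to 8879 UMIs per endothelial cell. The thinned shares of 5 of the 6 cisplatin libraries lay above those of all 6 PBS libraries of endothelium, the closest pair being 4.84% in Cisplatin nonstim 1, from 6 of 124 cells, and 4.76% in PBS stim 1, from 1 of 21 cells.

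Trp53inp1, the p53 partner, stood in endothelium at 116, 134 and 183 CPM in Cisplatin stim, 38.8, 95.4 and 97.1 CPM in Cisplatin nonstim, 50.5, 54.1 and 58.6 CPM in PBS stim and 24.1, 36.7 and 31.6 CPM in PBS nonstim. Neither drug comparison showed overlap between its groups, and Cisplatin stim library 1, low for Phlda3, lay above all PBS libraries for this gene. Its log2 fold change was 1.24 ± 0.21 without stimulation (edgeR adjusted p = 0.00240) and 1.48 ± 0.21 with it (edgeR adjusted p = 0.000308). Ccng1, cyclin G1, stood at 30.5, 45.9 and 30.1 CPM in Cisplatin stim, 30.9, 36.3 and 51.6 CPM in Cisplatin nonstim, 10.1, 11.8 and 17.0 CPM in PBS stim and 12, 18.8 and 23.0 CPM in PBS nonstim. All 6 cisplatin libraries exceeded all 6 PBS libraries. Ccng1 changed by 1.11 ± 0.26 on the log2 scale without stimulation (edgeR adjusted p = 0.0352) and 1.38 ± 0.36 with it (edgeR adjusted p = 0.0362). The call without stimulation was lost in 6 of the 12 fits that left out 1 library, whenever a Cisplatin nonstim or PBS nonstim library was the one left out (adjusted p 0.0532 to 0.268). The call with stimulation was lost in 5, those without PBS stim 1, 2 or 3 or Cisplatin stim 1 or 2 (adjusted p 0.0656 to 0.211).

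**Figure D2:**
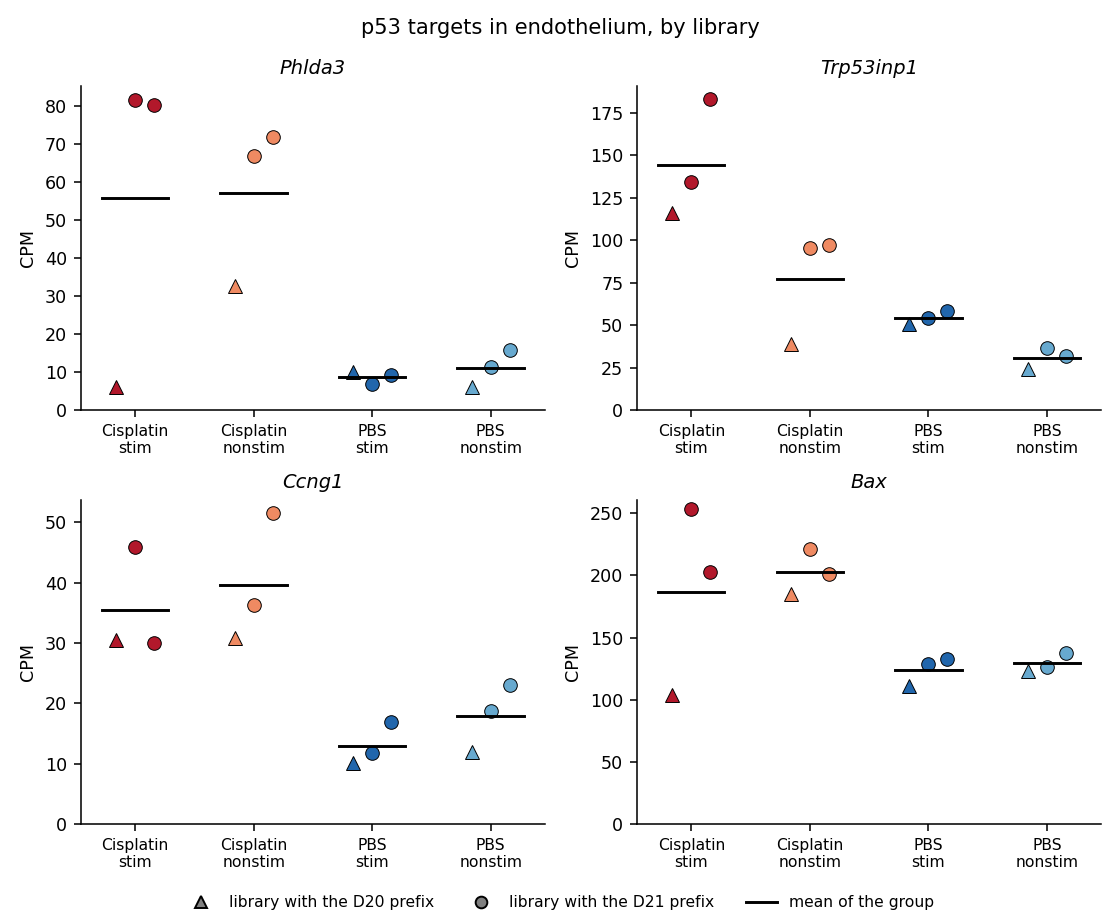
CPM of Phlda3, Trp53inp1, Ccng1 and Bax in the endothelium of each library (triangles, libraries with the D20 prefix; circles, D21 prefix; bars, group means; linear axes from 0). Ccng1 separates all cisplatin from all PBS libraries, while Cisplatin stim library 1 lies at the PBS level for Phlda3 (6.09 CPM) and Bax (104 CPM).

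Bax, the apoptotic pore former, stood in endothelium at 104, 253 and 203 CPM in Cisplatin stim, 185, 221 and 201 CPM in Cisplatin nonstim, 111, 128 and 133 CPM in PBS stim and 123, 126 and 138 CPM in PBS nonstim. The nonstim groups did not overlap, and among stim libraries Cisplatin stim 1 was again the low one. The log2 fold change was 0.63 ± 0.15 without stimulation (edgeR adjusted p = 0.0456). With stimulation it was 0.62 ± 0.18, which did not pass (edgeR adjusted p = 0.0627). The call without stimulation was lost in 8 of 12 fits that left out 1 library (adjusted p 0.0574 to 0.265), the 3 Cisplatin nonstim libraries, PBS nonstim 2 and 3, PBS stim 2 and 3 and Cisplatin stim 3.

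Marker genes of other cell types were summed in the same endothelial libraries, and their part in the changes was not tested. Oligodendrocyte markers, of the type richest in Phlda3, summed to 308 to 710.0 CPM in Cisplatin stim and 222 to 1060 CPM in Cisplatin nonstim, against 269.9 to 843 CPM in PBS stim and 148 to 591 CPM in PBS nonstim, and the ranges overlapped. Choroid plexus markers summed to 79.2 to 407 CPM in Cisplatin stim and 210.4 to 2455 CPM in Cisplatin nonstim, against 0 to 390.2 CPM in PBS stim and 7.52 to 144 CPM in PBS nonstim. In Cisplatin nonstim choroid plexus cells themselves these markers summed to 111800 to 236600 CPM, while Phlda3 stood at 51.4 to 71.8 CPM. Fibroblast markers did not exceed 22.0 CPM in any endothelial sum.

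Cisplatin stim was compared with PBS stim to ask the same question in stimulated mice. Here 6 of 56 pairs passed, all higher, against 3.89% of all pairs by edgeR. In endothelium Phlda3 (7.81-fold), Trp53inp1 (2.8-fold) and Ccng1 (2.61-fold) rose, 3 of 8 against 2.53% of all genes. In pericytes Phlda3 and Trp53inp1 rose, 2 of 7 against 0.455% of all genes. In oligodendrocytes Bbc3 rose by 3.03-fold, 1 of 8 against 14.5% of all genes. Both drug comparisons use separate libraries, but they share the estimate of spread.

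Averaged over stimulation, cisplatin was set against PBS over 6 libraries each, which gives the drug change its smallest error. Of 56 pairs 13 passed, all higher, against 9.72% of all pairs. In endothelium 5 of 8 targets rose against a background of 5.66%: Phlda3 (log2 fold change 2.67 ± 0.25, 6.37-fold), Trp53inp1 (1.36 ± 0.15), Ccng1 (1.25 ± 0.22), Aen (0.79 ± 0.23) and Bax (0.63 ± 0.12). The edgeR adjusted p was 4.5e-07 for Phlda3, 3.08e-06 for Trp53inp1, 0.000887 for Ccng1, 0.0015 for Bax and 0.0435 for Aen. Aen, the nuclease, ranged over 27.4, 37.8 and 49.3 CPM (lowest, median and highest of 6) with cisplatin, against 15.2, 22.3 and 33.1 CPM with PBS, so the groups overlapped. Its call was lost in 7 of 12 fits that left out 1 library, those without PBS nonstim 2 or 3, PBS stim 2 or 3, Cisplatin nonstim 2 or 3 or Cisplatin stim 2 (adjusted p 0.0826 to 0.196), and with the replicate number as a block (edgeR adjusted p = 0.0524) and in DESeq2 (adjusted p = 0.118). With the ribosomal RNA-like share as a covariate its estimate turned to -0.22.

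The other 3 targets tested in endothelium did not pass, and their groups overlapped. Bbc3 had a median of 21.2 CPM with cisplatin and 22.0 CPM with PBS (log2 fold change 0.11 ± 0.25). Mdm2, the ligase that p53 induces in many cells, had 45.8 and 39.7 CPM (0.18 ± 0.17), and Zmat3 had 16.4 and 13.9 CPM (0.28 ± 0.33). Gdf15 and Eda2r were too low to test there. Eda2r, the receptor, stood at 0, 8.49 and 3.76 CPM in Cisplatin stim, 0.882, 2.86 and 2.02 CPM in Cisplatin nonstim, 0 CPM in all PBS stim libraries and 0, 1.63 and 0 CPM in PBS nonstim, from at most 5 UMIs in a library.

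**Figure D3:**
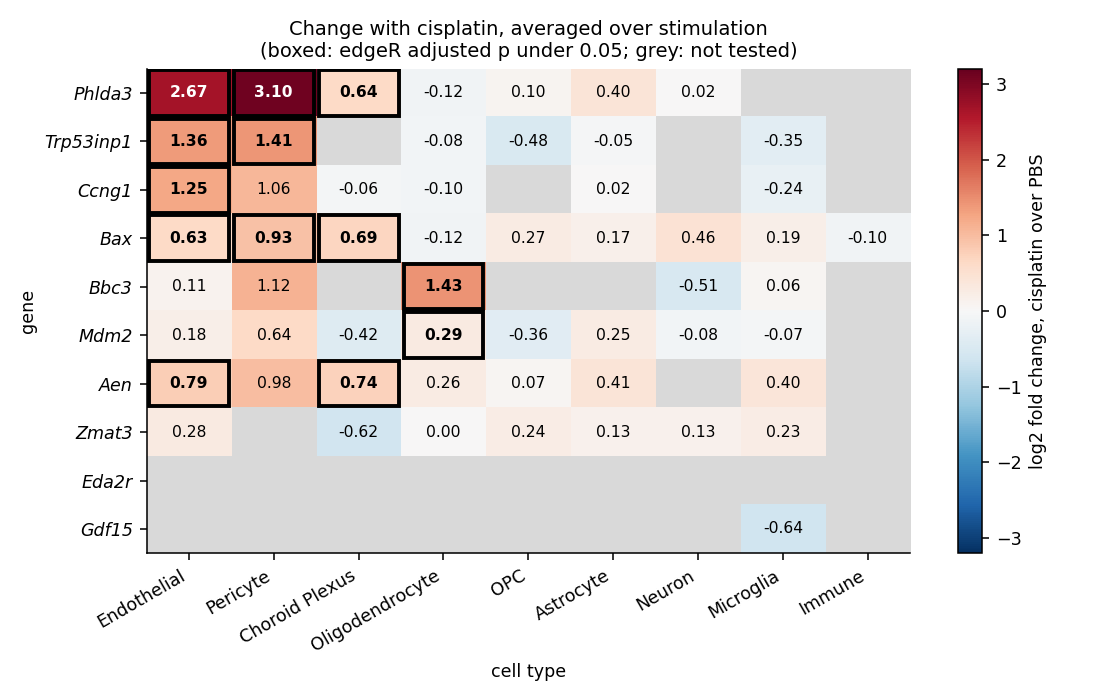
Log2 fold change of cisplatin over PBS, averaged over stimulation, for 10 p53 targets (rows) in 9 tested cell types (columns); boxed values passed edgeR at an adjusted p under 0.05 and grey cells were not tested. Calls sit in endothelium, pericytes, choroid plexus and oligodendrocytes.

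The drug change in endothelium was set against that in other types as the difference of the 2 changes within each library (limma, adjusted over all genes tested in both types). Endothelium was the reference because earlier results of these same data named it for this list. The differences that passed therefore describe that choice and are not independent evidence that endothelium responds more. Averaged over stimulation, Phlda3 rose more in endothelium than in oligodendrocytes (difference 2.07 ± 0.31 on the log2 scale, SE, limma adjusted p = 0.0011), OPCs (1.87 ± 0.36, limma adjusted p = 0.00659) and neurons (2.03 ± 0.53, limma adjusted p = 0.0318). Against astrocytes the difference was 1.60 ± 0.46 and against choroid plexus 1.29 ± 0.44, neither of which passed (limma adjusted p = 0.113 and 0.431). Trp53inp1 rose more in endothelium than in astrocytes (1.33 ± 0.21), microglia (1.80 ± 0.31) and OPCs (1.78 ± 0.32). Ccng1 rose more than in astrocytes (1.15 ± 0.26), microglia (1.40 ± 0.24) and oligodendrocytes (1.22 ± 0.22). Bbc3 differed the other way, by -1.14 ± 0.26 between endothelium and oligodendrocytes (limma adjusted p = 0.0208).

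In all, 10 of 47 such differences passed when averaged over stimulation, against 1.7% of all 47557. Between Cisplatin stim and PBS stim 3 passed, against 0.871%: Trp53inp1 against microglia (2.05 ± 0.44), Phlda3 against oligodendrocytes (2.01 ± 0.44) and Bbc3 against oligodendrocytes (-1.43 ± 0.36). Between Cisplatin nonstim and PBS nonstim 0 passed in limma, against 0.082%, with 18 at an unadjusted p under 0.05, and no other tool was run for this test. With the ribosomal RNA-like share as a covariate 0 differences passed averaged over stimulation and 0 between Cisplatin stim and PBS stim, and without the prefix as a term 0 passed between Cisplatin stim and PBS stim. The share over all genes is not given for these fits. The difference for Trp53inp1 against oligodendrocytes was 1.14 ± 0.30 averaged over stimulation and did not pass (limma adjusted p = 0.0538).

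**Figure D4:**
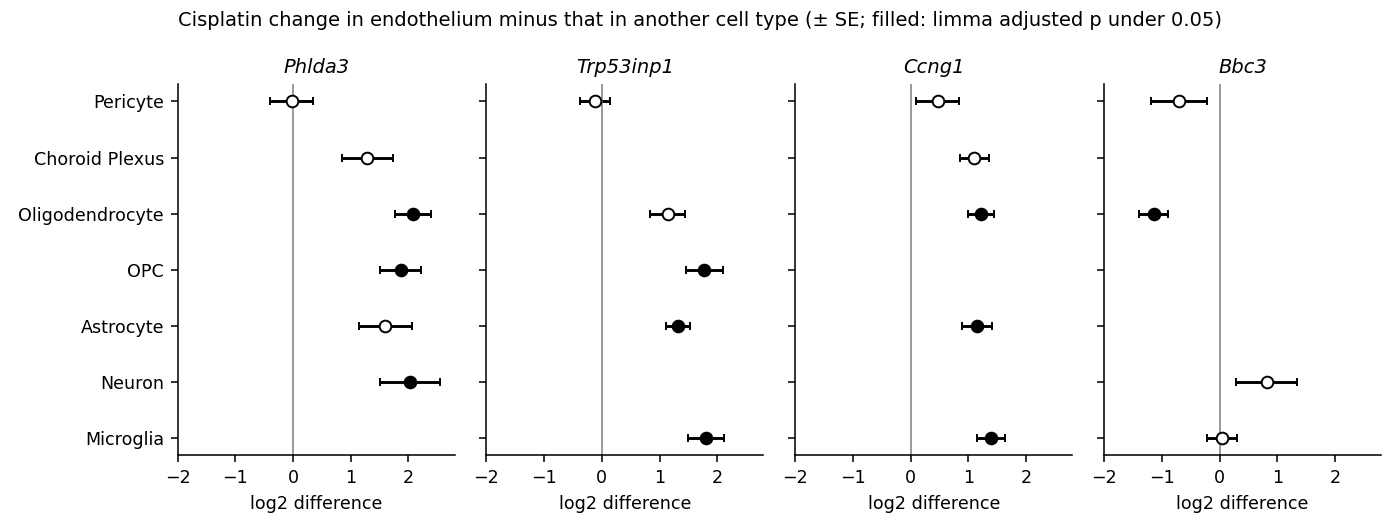
Difference between the cisplatin change in endothelium and that in another cell type, on the log2 scale (± SE), for 4 targets; filled points passed limma at an adjusted p under 0.05. Phlda3, Trp53inp1 and Ccng1 lie right of 0 against every type drawn but pericytes, where Phlda3 is at -0.02, and Bbc3 is at -1.14 against oligodendrocytes.

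In pericytes, the mural cells of capillaries, Phlda3 was likewise higher with cisplatin. Phlda3 stood at 25.2, 88.4 and 63.4 CPM in Cisplatin stim, 65.8, 36.0 and 121 CPM in Cisplatin nonstim, 0 and 7.14 CPM in PBS stim libraries 2 and 3 and 20.9, 11.8 and 10.3 CPM in PBS nonstim. PBS stim library 1 had fewer than 10 pericytes and was left out, and all 6 cisplatin libraries exceeded all 5 PBS libraries in CPM. The closest pair, Cisplatin stim 1 (25.2 CPM) and PBS nonstim 1 (20.9 CPM), had 13 and 15 pericytes with 118956 and 143418 UMIs of all genes. Both held the same small number of Phlda3 UMIs, so this pair is not separated by counts. The log2 fold change was 2.44 ± 0.52 without stimulation (edgeR adjusted p = 0.0378) and 3.76 ± 0.75 with it (edgeR adjusted p = 0.023). Averaged, Phlda3 (3.1 ± 0.46), Trp53inp1 (1.41 ± 0.22) and Bax (0.93 ± 0.18) rose, 3 of 7 against 1.47% of all genes. Phlda3 passed the filter on low counts in pericytes through its cisplatin libraries alone, as no PBS library exceeded 20.9 CPM. The pericyte counts that include Phlda3, here and above, are therefore not independent of its rise. Trp53inp1 stood at 75.7, 131 and 150 CPM in Cisplatin stim against 27.9 and 40.4 CPM in PBS stim, with no overlap, and at 53.8, 86.5 and 108 CPM in Cisplatin nonstim against 13.9, 50.7 and 69.0 CPM in PBS nonstim, with overlap. Bax ranged over 126, 204 and 276 CPM with cisplatin against 88.5, 126 and 142 CPM with PBS.

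Endothelial markers summed to 8095 to 10520 CPM in the pericyte libraries, against 13200 to 15270 CPM in endothelium, and the part of this RNA in the pericyte results was not tested. The endothelium minus pericyte difference of the drug change was -0.02 ± 0.38 for Phlda3 and -0.12 ± 0.26 for Trp53inp1. The Phlda3 call without stimulation was lost in 6 of 12 fits that left out 1 library, those without Cisplatin nonstim 1 or 3, PBS nonstim 2 or 3 or Cisplatin stim 2 or 3 (adjusted p 0.0605 to 0.492). With stimulation it was lost in 3, those without PBS stim 2, PBS stim 3 or Cisplatin stim 2. The call of Trp53inp1 with stimulation was lost without PBS stim 3 (edgeR adjusted p = 0.0737), and that of Bax without Cisplatin stim 2 (edgeR adjusted p = 0.0588).

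In the choroid plexus, the epithelium that makes cerebrospinal fluid, Bax, Aen and Phlda3 rose by 0.69 ± 0.18, 0.74 ± 0.21 and 0.64 ± 0.17 on the log2 scale when averaged over stimulation. The edgeR adjusted p was 0.024, 0.0335 and 0.0288, and 3 of 6 targets compares with 14.4% of all genes there. Phlda3 ranged over 39.7, 51.7 and 71.8 CPM with cisplatin against 29.9, 38.8 and 51.8 CPM with PBS, Bax over 45.4, 81.5 and 91.6 CPM against 45.9, 59.2 and 99.6 CPM, and Aen over 20.1, 25.0 and 32.3 CPM against 11.7, 18.6 and 29.9 CPM. Cisplatin and PBS libraries overlapped for all 3. Medians of other targets were lower with cisplatin there, without a call. Mdm2 ranged over 48.0, 52.9 and 87.0 CPM with cisplatin against 69.7, 83.9 and 104 CPM with PBS. The median of Ccng1 was 60.1 against 66.8 CPM and that of Zmat3 9.23 against 17.0 CPM. Neither drug comparison alone called any of the 6, with 4 and 3 at an unadjusted p under 0.05 without and with stimulation, and DESeq2 called 0. Without PBS nonstim 1, Bax passed in the comparison without stimulation (edgeR adjusted p = 0.0331). All 3 calls were lost with the replicate number as a block (edgeR adjusted p 0.0547 to 0.0688). They were also lost without PBS nonstim 2 or 3, PBS stim 2 or 3, Cisplatin nonstim 2 or Cisplatin stim 2 or 3, and that of Aen without Cisplatin nonstim 3 as well.

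In oligodendrocytes the 1 target called in each drug comparison was Bbc3. That is 1 of 8 against 6.25% of all genes without stimulation and 14.5% with it, close to those backgrounds. Bbc3, which encodes Puma, stood at 27.4, 20.7 and 14.3 CPM in Cisplatin stim, 12.5, 14 and 12.7 CPM in Cisplatin nonstim, 9.09, 5.32 and 6.85 CPM in PBS stim and 6.59, 4.67 and 5.66 CPM in PBS nonstim. All 6 cisplatin libraries exceeded all 6 PBS libraries. The log2 fold change was 1.27 ± 0.24 without stimulation (edgeR adjusted p = 0.00359) and 1.60 ± 0.26 with it (edgeR adjusted p = 0.000298). The call without stimulation was lost only without Cisplatin nonstim 2 (edgeR adjusted p = 0.0561), and the other was kept in every such fit. The UMIs were spread over cells: 25 to 52 cells held one in each cisplatin library and 8 to 25 in each PBS library, with at most 4 in a cell.

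The oligodendrocytes fall into 4 clusters of the authors, of which clusters 2, 7 and 8 had at least 10 cells in all 12 libraries. Bbc3 ranged over 11, 17.1 and 39.0 CPM with cisplatin against 5.03, 7.77 and 15.2 CPM with PBS in cluster 2. In cluster 7 it ranged over 11.8, 21.6 and 31.5 CPM against 9.16, 11.2 and 15.2 CPM, and in cluster 8 over 1.42, 7.21 and 18.3 CPM against 0, 0.301 and 1.47 CPM. The median was higher with cisplatin in each, and no test was made within clusters. Mdm2 also rose in oligodendrocytes when averaged over stimulation, by 0.29 ± 0.10 (edgeR adjusted p = 0.033), 2 of 8 targets against 23.3% of all genes, which is near that background. It ranged over 51.0, 64.6 and 77.0 CPM with cisplatin against 45.5, 55.9 and 60.9 CPM with PBS. Its call was lost in 9 of 12 fits that left out 1 library, and was kept only without Cisplatin nonstim 3, Cisplatin stim 1 or PBS nonstim 1. Phlda3, most abundant in this type, had a log2 fold change of -0.12 ± 0.07 and did not pass (edgeR adjusted p = 0.191).

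In microglia, the resident immune cells, Gdf15 was the 1 called target, and it was lower with cisplatin in unstimulated mice. Its levels were 35.3, 10.9 and 8.42 CPM in Cisplatin stim, 33.1, 7.24 and 4.41 CPM in Cisplatin nonstim, 22.9, 9.97 and 15.3 CPM in PBS stim and 78.4, 10.2 and 18.2 CPM in PBS nonstim. The library numbered 1 was the highest of its group in all 4 groups, and the groups overlapped. The log2 fold change was -1.12 ± 0.27 without stimulation (edgeR adjusted p = 0.0208), and averaged over stimulation it was -0.64 ± 0.22, which did not pass (edgeR adjusted p = 0.0573). The UMIs came from 1 to 13 cells per library, and the richest cell held 25.7 to 100% of them. The call was lost without PBS nonstim 1 or 3 or Cisplatin nonstim 2 or 3 (adjusted p 0.0785 to 0.154), and without the library prefix as a term (edgeR adjusted p = 0.583). The other 7 targets tested in microglia did not pass, with Phlda3 too low to test.

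No target was called in any comparison in the remaining 4 types, of which 7 were tested in astrocytes, 6 in OPCs, 5 in neurons and 1 in immune cells. At an unadjusted p under 0.05 there were 1 in astrocytes with stimulation and 1 in OPCs without it among the drug comparisons, and 0 in neurons and immune cells, and DESeq2 called 0 of the targets in these types. The smallest p in astrocytes belonged to Aen with cisplatin under stimulation (log2 fold change 0.75 ± 0.24, edgeR adjusted p = 0.102). In OPCs it belonged to Bax with cisplatin without stimulation (0.31 ± 0.15, edgeR adjusted p = 0.501), and in neurons to Bax under stimulation (0.61 ± 0.32, edgeR adjusted p = 0.333). In immune cells Bax, the 1 gene tested, had its smallest p between Cisplatin stim and Cisplatin nonstim (-0.57 ± 0.30, edgeR adjusted p = 0.951). Zmat3 was called in none of the 7 types in which it was tested, and Eda2r was tested in none.

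Cisplatin stim was compared with Cisplatin nonstim to ask whether stimulation changed these transcripts in drug-treated mice. Among 56 pairs 1 passed, Trp53inp1 in endothelium, which was 1.93-fold higher with stimulation (log2 fold change 0.95 ± 0.17, edgeR adjusted p = 0.0282), against 0.196% of all pairs. The 3 Cisplatin stim libraries (116 to 183 CPM) lay above the 3 Cisplatin nonstim libraries (38.8 to 97.1 CPM). In PBS mice the change of this gene with stimulation was 0.71 ± 0.25, also without overlap between groups, and did not pass (edgeR adjusted p = 1.0). The interaction, the test of whether both changes differ, was 0.24 ± 0.31 (edgeR adjusted p = 0.981). The call was lost in 6 of 12 fits that left out 1 library, those without Cisplatin nonstim 1, 2 or 3, Cisplatin stim 1 or 3 or PBS stim 3 (adjusted p 0.057 to 0.171), and in DESeq2 (adjusted p = 0.0636). The other targets of endothelium differed by -0.82 ± 0.33 (Bbc3) to 0.20 ± 0.43 (Zmat3), and Phlda3 by 0.02 ± 0.24.

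PBS stim was compared with PBS nonstim to ask the same without the drug, and 0 of 56 pairs passed in edgeR, as 0 of all 69488 pairs did (0.0%). At an unadjusted p under 0.05 there were 3, and DESeq2 called 0. In the interaction of drug and stimulation 0 of 56 passed against 0.0245% of all pairs, with 4 at an unadjusted p under 0.05 and 0 in DESeq2.

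Cdkn1a, the cell-cycle inhibitor left out of the list, was described beside them. In oligodendrocytes its log2 fold change was 3.45 ± 0.50 without stimulation and 6.93 ± 0.48 with it, and 3.44 ± 0.32 between Cisplatin stim and Cisplatin nonstim (edgeR adjusted p = 0.000527, 1.36e-08 and 1.06e-05). Cdkn1a stood there at 16.2 to 920 CPM with cisplatin, a wide spread, against 0.404 to 6.58 CPM with PBS, so the drug changes are taken over a low level. Averaged over stimulation it rose by 0.77 ± 0.18 in endothelium (edgeR adjusted p = 0.0134), where it stood at 683 to 1085 CPM with cisplatin against 277.8 to 775 CPM with PBS. Cisplatin stim library 1, low for Phlda3 and Bax, had the highest Cdkn1a of all endothelial sums, 1085 CPM. Cdkn1a also rose, averaged over stimulation, in astrocytes (3.13 ± 0.51, from a PBS median of 1.2 CPM), OPCs (1.54 ± 0.40) and choroid plexus (1.10 ± 0.21).

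A wider list of 44 other p53 targets was described in the same fits, Cdkn1a among them. The list was chosen with earlier results of these data known, so its counts and medians are a description and not independent evidence. Averaged over stimulation, 7 of the 24 tested in endothelium rose and 0 fell against a background of 5.66%, with a median log2 fold change of 0.23 over the 24, against 0.71 over the 8 of the 10 targets tested and 0.01 over all genes. They were Dcxr, a carbonyl reductase (2.28 ± 0.30), the death receptor Fas (0.72 ± 0.14), the epoxide hydrolase Ephx1 (0.67 ± 0.13), the antiproliferative Btg2 (0.50 ± 0.12), Ei24 (0.42 ± 0.12), the ribosomal protein paralog Rps27l (0.42 ± 0.09) and Cdkn1a. In oligodendrocytes 6 of 24 rose and 1 fell, among them Btg2 (0.85 ± 0.19), the adenylate kinase Ak1 (0.56 ± 0.12) and Dcxr (0.90 ± 0.15) higher and the lipase Abhd4 (-0.35 ± 0.09) lower. That is a share near the background of 23.3%. In astrocytes 3 of 27 rose and 1 fell (background 5.02%), in microglia 3 of 35 rose and 2 fell (14.8%), and in choroid plexus 2 of 21 rose and 1 fell (14.4%). In OPCs Cdkn1a rose (1 of 17, background 2.26%), and in neurons Sesn1, a stress-induced metabolic regulator, fell by 0.91 ± 0.28 (1 of 14, background 8.38%). Over all types 23 of 193 pairs rose and 6 fell, against 9.72% of all pairs called in either direction.

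The genes that control p53, 12 in number, gave 0 calls in 66 pairs in either drug comparison alone, with 7 and 10 at an unadjusted p under 0.05 without and with stimulation, and 0 in DESeq2. The backgrounds were 1.64% of all pairs without stimulation and 3.89% with it in edgeR, and 1.39% and 3.32% in DESeq2. Averaged over stimulation 2 of the 66 fell against a background of 9.72%, Ep300, an acetyltransferase of p53, in microglia (-0.28 ± 0.08) and Trp53bp1, a binding partner of p53 in DNA repair, in oligodendrocytes (-0.54 ± 0.16). DESeq2 called 1 of the 66 in that comparison, against 7.21% of all pairs in its fit.

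For Phlda3, Trp53inp1, Ccng1 and Bbc3, the targets called most often between pairs of groups, the genes with the most similar profile were sought over 36 points, the mean log2(CPM + 1) of 9 types in 4 groups, among 7603 genes tested in at least 5 types. The points share libraries and groups, so the Pearson r is a description. Phlda3 was most like Cfl2 (0.840), Fam204a (0.824) and Ywhaq (0.818), and Trp53inp1 most like Slc30a1 (0.879), Golim4 (0.868) and Nbeal1 (0.860). Ccng1 was most like Ift52 (0.791), Cul4b (0.764) and Gm17018 (0.761), and Bbc3 most like Ccdc71l (0.812), Larp4b (0.808) and Zbtb7a (0.804). No gene appeared for more than 1 target.

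Within the libraries of the D21 prefix alone 16 of 55 target and type pairs passed averaged over stimulation, against 17.5% of all 71231 pairs in that fit. The log2 fold change of Phlda3 in endothelium was then 2.8 ± 0.22 (edgeR adjusted p = 5.25e-09), that of Trp53inp1 1.44 ± 0.14 and that of Bbc3 in oligodendrocytes 1.46 ± 0.21. The D20 libraries, library 1 of each group, were not tested on their own. Phlda3 there was 6.09 and 32.6 CPM in Cisplatin stim and Cisplatin nonstim against 10.1 and 6.01 CPM in PBS stim and PBS nonstim. With the ribosomal RNA-like share as a covariate 0 of 56 pairs passed averaged over stimulation, against 0.366% of all 69488 pairs. The estimate for Phlda3 in endothelium was then 2.63 ± 0.70 (edgeR adjusted p = 0.253), for Trp53inp1 1.00 ± 0.36 and for Bbc3 in oligodendrocytes 1.16 ± 0.37. The part of this share in the results was not tested.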

How the data were processed

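The authors made 3′ single-cell libraries (10x Genomics, per the labels' protocols) and processed them with Cell Ranger 5.0.0 and Scanpy on mm10, per the submitters' processing notes. The deposited matrix holds UMI counts per gene and cell, and the deposited cell table gives library, cluster and MajorCellType. The authors' deposited doublet score column calls 0 cells doublets, and no cell was removed here. The deposited gene table's mean score per gene, made by the authors, enters no test.

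For each library, counts of the cells of a type were added up. Types in which each group kept at least 2 libraries with at least 10 cells were tested, 9 of 12. Genes were filtered with filterByExpr, scaled by TMM and fitted with edgeR 4.0.16 in R 4.3.3 (quasi-likelihood, group and library prefix D20 or D21 as terms, all 4 groups sharing 1 estimate of spread), with Benjamini-Hochberg adjustment over all genes of a type and comparison and a threshold of 0.05. Differences between types used limma 3.58.1 on log2 CPM within libraries. The fits were tested on simulated counts. Alternatives were RLE size factors, no filter, DESeq2 1.42.0, a replicate block, no prefix term, D21 libraries alone, at least 30 cells, cells of up to 10% mitochondrial UMIs, a ribosomal RNA-like covariate, no PBS libraries of the D21 prefix, and each library left out.

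The members, the lists and endothelium as the reference type were chosen with earlier results of these data known. Values in every library are given for members called between 2 groups, and every called gene of the wider lists is named or counted, except that 1 result is not reported here on its own. Same-numbered libraries deviated together in most but not all pairs of groups (r from -0.0643 to 0.597 over 15387 genes), so the numbers were not taken as pairs. Libraries held 3964338 to 17656020 UMIs, and intervals and limits on shares cover counting error only.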

Additional observations from a re-analysis of the deposited data

Results flagged for a closer look

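Endothelium was taken as the reference type with earlier results of these data known. The drug change differed between endothelium and another cell type in 13 tests of the difference itself (limma, adjusted over all genes tested in both types). Averaged over stimulation 10 of 47 passed, against 1.7% of all differences, and between Cisplatin stim and PBS stim 3 of 47, against 0.871%. Without stimulation 0 of 47 passed, against 0.082%. The 3 are gene and type pairs already among the 10, and the average includes their libraries, so the 13 are not separate results. With the ribosomal RNA-like share as a covariate 0 of the 13 passed, and without the prefix as a term 0 of those between Cisplatin stim and PBS stim did. The share over all genes is not given for these fits. Averaged over stimulation, the change of Phlda3 in endothelium exceeded that in oligodendrocytes by 2.07, in neurons by 2.03 and in OPCs by 1.87 on the log2 scale. That of Trp53inp1 exceeded the change in microglia by 1.80, in OPCs by 1.78 and in astrocytes by 1.33. That of Ccng1 exceeded the change in microglia by 1.40, in oligodendrocytes by 1.22 and in astrocytes by 1.15. Bbc3 differed by -1.14 against oligodendrocytes, where its change was the larger. Between Cisplatin stim and PBS stim the differences were 2.05 for Trp53inp1 against microglia, 2.01 for Phlda3 against oligodendrocytes and -1.43 for Bbc3 against oligodendrocytes.

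Fibroblasts were too few to compare, with at least 10 cells in 3 libraries, all of cisplatin mice. Those 3 libraries held 53 Phlda3 UMIs, at 238 and 191 CPM in Cisplatin stim 2 and 3 and 279 CPM in Cisplatin nonstim 2. They held 7 Eda2r UMIs, at 65.0 and 38.3 CPM in Cisplatin stim 2 and 3 and 0 CPM in Cisplatin nonstim 2. No PBS library had 10 fibroblasts, so neither gene has a PBS value in this type.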

How the results depend on the processing

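Percentages in this paragraph are the share of all gene and type pairs called in the same fit. Without stimulation, 7 member pairs passed (1.64%). The count was 4 in DESeq2 (1.39%), which gave 2 of the 7 no adjusted p, and 2 without the prefix term. It was 12 in D21 libraries alone (9.68%) and 0 with the ribosomal RNA-like covariate (0.036%). With 1 library left out it was 3 to 9, with 3 without PBS nonstim 3, Cisplatin nonstim 2 or Cisplatin nonstim 3. It was 4 without PBS nonstim 2. With stimulation 6 passed (3.89%), against 10 in D21 libraries (8.17%), 1 with the covariate (1.04%) and 3 to 7 with 1 left out (3 without PBS stim 3). Averaged, 13 passed (9.72%), against 0 with the covariate (0.366%) and 7 to 16 with 1 left out. The averaged count was 8 without PBS nonstim 3, PBS stim 2, PBS stim 3 or Cisplatin nonstim 2 and 7 without Cisplatin stim 2. Between Cisplatin stim and Cisplatin nonstim 1 passed, against 0 in DESeq2, without the prefix term and in D21 libraries, and 0 to 1 with 1 left out. PBS stim against PBS nonstim and the interaction stayed at 0 in every setting run.

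Differences between endothelium and other types were given alternatives chosen after seeing the data. Without stimulation 0 passed, against 9 in D21 libraries and 0 to 4 with 1 left out. With stimulation 3 passed, against 0 without the prefix term, 10 in D21 libraries, 0 with the covariate and 0 to 5 with 1 left out. Averaged, 10 passed, against 16 in D21 libraries, 0 with the covariate and 7 to 14 with 1 left out. The share over all genes is not given for these alternatives, so their counts cannot be set against it. Aen in endothelium reversed, to -0.22 with the covariate and -0.060 without the PBS D21 libraries. The cause of these changes was not tested.

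With the replicate number as a block, 7, 6, 9 and 1 member pairs passed without stimulation, with it, averaged, and between Cisplatin stim and Cisplatin nonstim. The share over all pairs is not given for the block, for fits without the prefix term or for those with 1 library left out. Of 27 called member results 12 passed whichever library was left out. Without the PBS D21 libraries nearly all calls were lost, but each PBS group then holds 1 library, assumed to vary like the others. A fit of that kind cannot tell an absent change from too few libraries, so its calls are not counted here and say little about stability. Pericytes could not be fitted in that setting. Nor could pericytes be fitted at 30 cells, or neurons without cells over 10% mitochondrial UMIs. Depth kept Eda2r out of every test.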
